A study of Homo sapiens with 12 samples.

Results

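TRMT112 and the methyltransferases that need it as a partner subunit were examined in RNA from the polysomes of 3 human triple-negative breast cancer (TNBC) cell lines. The 8 members were chosen by name: TRMT112 itself, the ribosomal RNA (rRNA) methyltransferases BUD23 and METTL5, the transfer RNA (tRNA) enzymes THUMPD3, TRMT11 and ALKBH8, the small nuclear RNA enzyme THUMPD2, and the protein methyltransferase N6AMT1. They are 8 of the 24559 gene symbols to which the transcripts of the count table could be assigned, and all 8 passed the filter on low counts. The study compared cells with lowered or raised TRMT112 with vector controls, in 12 libraries that fell into 6 groups of 2. In MDA-MB-231 and SUM159, the knockdown (KD) cells carried a GIPZ lentiviral shRNA plasmid against TRMT112 and the control (EV) cells a GIPZ non-silencing shRNA, both under puromycin. In BT549, the overexpression (OE) cells carried a TRMT112 open reading frame in pReceiver-M02 and their EV cells the empty pReceiver-M02, both under G418. In every group cycloheximide, which stalls ribosomes on mRNA, was used when the cells were collected for the gradients. The labels do not say whether the 2 libraries of a group came from separate cultures, so p-values measure the spread between these libraries, which may be technical.

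TRMT112 is a small protein with no catalytic activity of its own. It binds methyltransferases that use S-adenosylmethionine, covers part of their hydrophobic surface, and keeps them soluble and active. Its partners methylate 18S rRNA in the small ribosomal subunit (BUD23 at a guanosine, METTL5 at an adenosine), tRNA (THUMPD3 and TRMT11 at guanosines of the acceptor side and of the core, ALKBH8 at the wobble uridine of the anticodon), U6 small nuclear RNA (THUMPD2), and the translation termination factor eRF1 (N6AMT1, at the glutamine of its catalytic loop). Several partners are known to be unstable as proteins when TRMT112 is absent. The libraries measured mRNA on polysomes and not protein. No total RNA was sequenced, so less mRNA in the cell and fewer ribosomes on the same mRNA cannot be told apart. Counts were scaled within each library, so a rise or fall here is relative to the other polysomal RNA. The paper reports smaller ribosomal subunit and polysome peaks in both KD lines, and larger peaks in BT549 OE. The amount of each mRNA per cell was not measured. In such bulk samples, a change per cell and a change in the share of cells that express a gene cannot be told apart either.

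The libraries held between 22954226 and 27434677 expected counts, and TMM-normalized counts per library are given throughout unless another scale is named. Expected counts are a program's estimates of how many reads each transcript gave, so that sampling error is small at the levels of TRMT112 and larger for THUMPD2 and N6AMT1. The markers of the lines were checked. In the 12 libraries VIM was between 594 and 1868 TPM (counts per length, scaled to the same total in each library). EGFR was between 8.05 and 30.7 TPM, while PGR stayed at or below 0.239 TPM. ERBB2 lay between 26.5 and 55.7 TPM, with a higher median than EGFR (38.4 against 17.1 TPM). KRT8 had at least 4865 expected counts in MDA-MB-231 and SUM159 libraries but at most 16.0 in BT549, and KRT18 at most 6 in BT549, so these 2 epithelial keratins were nearly absent there. Markers of blood and endothelial cells were low, with at most 0.330 TPM for PTPRC and 1.05 TPM for PECAM1. PECAM1 nevertheless had 24.5 and 25.1 expected counts in SUM159 EV and 87.8 and 119 in KD. VIM had 43227 and 42873 in BT549 EV and 15758 and 14860 in OE, and ERBB2 3013 and 3089 in EV and 1526 and 1524 in OE. EGFR had 2621 and 2788 in SUM159 EV and 1094 and 1306 in KD, and 3564 and 3485 in MDA-MB-231 EV and 2346 and 2328 in KD. KRT8 had 4865 and 4918 in SUM159 EV and 8668 and 9609 in KD. The part of these marker changes in the results was not tested.

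TRMT112 (ENSG00000173113, chr11:64316460-64317559 of GRCh38, minus strand) changed in the direction of its construct in each line. In MDA-MB-231 it had 4147 and 3938 normalized counts in the EV libraries and 1764 and 1682 in the KD libraries. In SUM159 it had 6332 and 6566 in EV and 3909 and 3699 in KD, and in BT549 it had 3076 and 3087 in EV and 4286 and 4319 in OE. No KD or OE library overlapped the EV libraries of its line, and the knockdown left 42.6% of the control level in MDA-MB-231 and 58.9% in SUM159. The log2 fold changes were −1.23 ± 0.04 (SE, adjusted p = 5.10e-16), −0.76 ± 0.04 (adjusted p = 1.76e-14) and +0.48 ± 0.04 (adjusted p = 1.48e-10) by edgeR's quasi-likelihood test with Benjamini-Hochberg adjustment over 16538 genes. The overexpression was thus 1.40-fold, and after it BT549 still held fewer TRMT112 counts than the SUM159 EV libraries. In BT549 OE, counts cannot tell mRNA of the construct from that of the gene itself. ESRRA ends inside the last exon of TRMT112 on the opposite strand, and the strand setting of the counting is not given in the sources used here. ESRRA changed by 0.03 (log2, adjusted p = 0.69) in MDA-MB-231, where TRMT112 changed most, but rose in SUM159 KD (+0.31, adjusted p = 1.13e-06) and BT549 OE (+0.27, adjusted p = 5.47e-05). The pseudogene copy TRMT112P6 had at most 2.02 expected counts in any library.

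**Figure D1:**
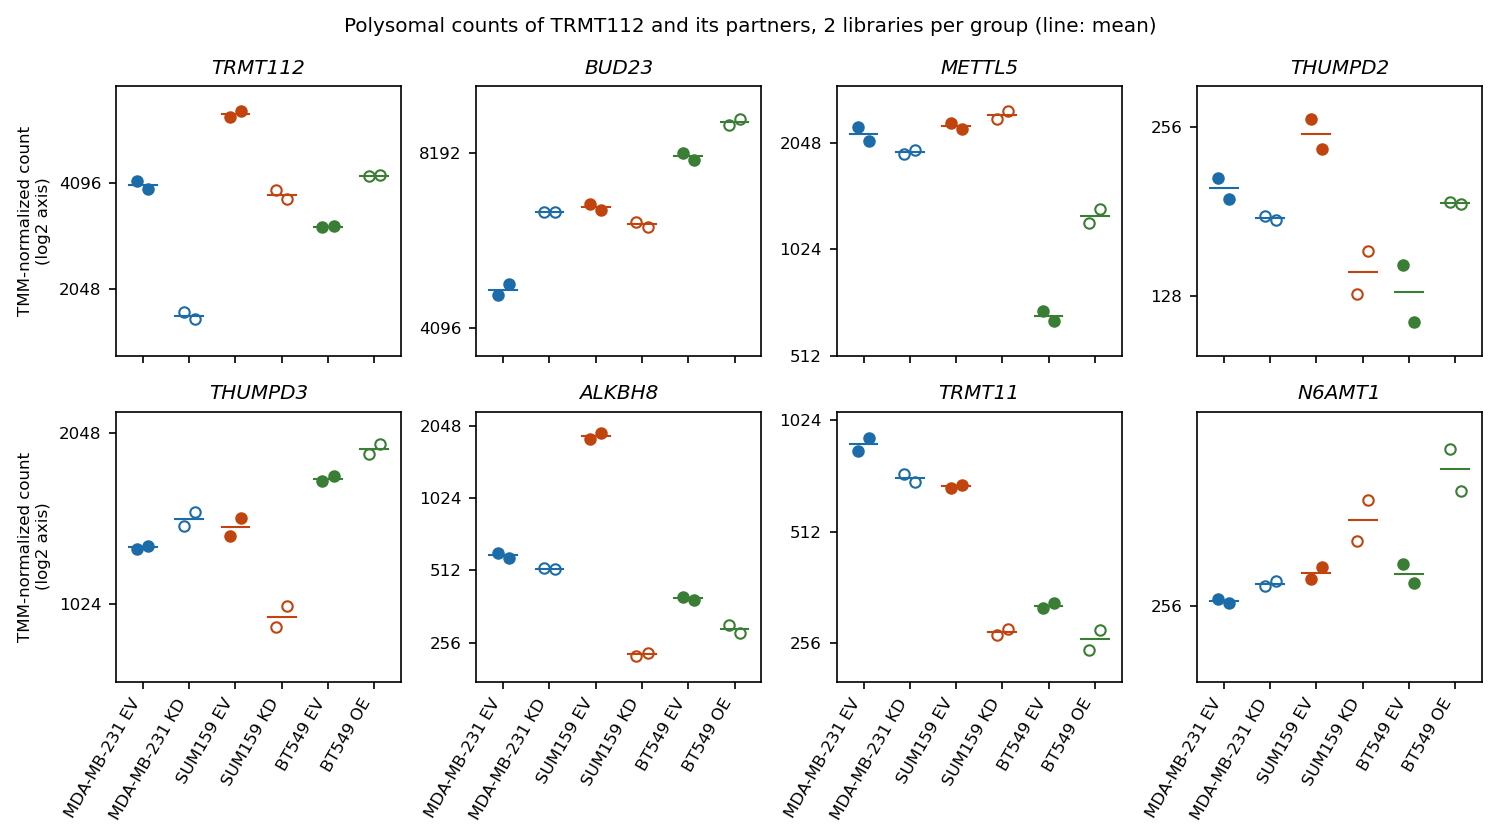
TMM-normalized counts (log2 axis, a different range in each panel) of the 8 genes in the 6 groups. Filled points are EV libraries, open points KD or OE libraries, 2 per group, and short lines are group means. TRMT112 is lowest in the 2 MDA-MB-231 KD libraries (1764 and 1682), and ALKBH8 falls from 1798 and 1915 in SUM159 EV to 226 and 233 in SUM159 KD.

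Per unit of length, the 8 mRNAs spanned a wide range and kept a similar order in the 3 lines. In the MDA-MB-231 EV libraries the mean levels were 433 ± 15.6 TPM (SD, n = 2) for TRMT112, 341 ± 10.4 for BUD23 and 214 ± 12.8 for METTL5. TRMT11 followed at 43.9 ± 1.46 TPM, THUMPD3 at 42.1 ± 3.64, ALKBH8 at 18.4 ± 1.77, N6AMT1 at 10.6 ± 0.072 and THUMPD2 at 8.01 ± 0.42. TRMT112, BUD23 and METTL5 were therefore above 92.9% of the genes over 1 TPM in these cells. The order of TRMT11 and THUMPD3 lay within their spread. TRMT112 was the highest of the 8 in both MDA-MB-231 EV and SUM159 EV (606 ± 11.02 TPM), and BUD23 in BT549 EV (441 ± 6.28 TPM, against 254 ± 2.22 for TRMT112). With TRMT112 knocked down, BUD23 stood first in MDA-MB-231 (436 against 173 TPM for TRMT112) and in SUM159 (354 against 327 TPM). THUMPD2 was the lowest of the 8 in all 6 groups, between 4.26 and 9.11 TPM. The order of THUMPD2 and N6AMT1 depended on the transcripts counted: over protein-coding transcripts alone, the mean of the 12 libraries was 2.52 TPM for N6AMT1 and 3.39 for THUMPD2, against 11.1 and 6.54 over all transcripts.

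BUD23 and METTL5, the partners that methylate 18S rRNA, moved differently from each other in the 2 knockdowns and rose together in BT549 OE. BUD23 (ENSG00000071462, chr7:73683597-73698212, plus strand) had 4665 and 4865 normalized counts in MDA-MB-231 EV and 6484 and 6481 in KD. It had 6695 and 6538 in SUM159 EV and 6233 and 6101 in KD, and 8183 and 7959 in BT549 EV and 9138 and 9359 in OE. The groups did not overlap in any line: BUD23 rose by 0.44 ± 0.03 (log2, adjusted p = 1.67e-10) in MDA-MB-231 KD and by 0.20 ± 0.03 (adjusted p = 5.18e-06) in BT549 OE. In SUM159 KD it changed by −0.10 ± 0.03 (adjusted p = 0.0075), a call that is lost with other size factors (−0.05, adjusted p = 0.21) and without EV replicate 1 or KD replicate 2. METTL5 (ENSG00000138382, chr2:169810081-169824931, minus strand) had 2269 and 2072 counts in MDA-MB-231 EV and 1906 and 1958 in KD. In SUM159 it had 2331 and 2239 in EV and 2394 and 2513 in KD. BT549 held far less of it, with 687 and 643 in EV and 1215 and 1325 in OE. METTL5 was thus 1.91-fold higher in BT549 OE (+0.93 ± 0.07, adjusted p = 9.36e-12), the largest rise among the 8 genes. In MDA-MB-231 KD it was lower by a small margin (−0.17 ± 0.05, adjusted p = 0.0122, lost without EV replicate 1 or KD replicate 1). In SUM159 KD it did not pass the test (+0.10, 95% CI −0.00076 to 0.21, adjusted p = 0.082), but it was called higher under 5 of 13 alternatives, by up to 0.16 with RLE size factors (adjusted p = 0.0097). SSB, which encodes the La protein, overlaps the 3′ end of METTL5 on the opposite strand and was lower in both knockdowns (−0.46 and −0.83) and higher in BT549 OE (+0.42). Its part in the METTL5 counts was not tested.

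THUMPD2 and THUMPD3 both fell in SUM159 KD and rose in BT549 OE. THUMPD3 (ENSG00000134077, chr3:9362971-9386791, plus strand) had 1350 and 1454 counts in SUM159 EV and 934 and 1016 in KD. Its counts were 1281 and 1296 in MDA-MB-231 EV and 1405 and 1489 in KD, and 1682 and 1720 in BT549 EV and 1876 and 1953 in OE. THUMPD3 fell by 0.52 ± 0.06 (log2, adjusted p = 2.83e-08) in SUM159 KD, to 69.7% of control, and was higher by 0.17 ± 0.05 in each of the other lines (adjusted p = 0.0178 in MDA-MB-231 and 0.0065 in BT549). The first lost its call under library size scaling (+0.08, adjusted p = 0.30), over protein-coding transcripts alone (+0.15, adjusted p = 0.051), and without MDA-MB-231 EV replicate 1, EV replicate 2 or KD replicate 2, and the second lost it without BT549 EV replicate 1 or OE replicate 2. THUMPD3-AS1 and SRGAP3 overlap THUMPD3 on the opposite strand. THUMPD3-AS1 had 78.5 and 70.8 expected counts in MDA-MB-231 EV and 44.4 and 40.2 in KD. In SUM159 it had 99.3 and 99.8 in EV and 112 and 111 in KD, and in BT549 40.5 and 37.6 in EV and 102 and 93.2 in OE. The part of these overlapping genes in the THUMPD3 counts was not tested. THUMPD2 (ENSG00000138050, chr2:39736060-39779267, minus strand) had 264 and 234 counts in SUM159 EV and 129 and 154 in KD. It had 208 and 191 in MDA-MB-231 EV and 178 and 175 in KD, and 146 and 115 in BT549 EV and 188 and 187 in OE. It fell by 0.81 ± 0.14 (log2, adjusted p = 1.91e-05) in SUM159 KD, to 57.0% of control. In BT549 OE it was higher by 0.52 ± 0.15 (adjusted p = 0.0036, lost without EV replicate 2), and in MDA-MB-231 KD it did not pass the test (−0.17, 95% CI −0.46 to 0.11, adjusted p = 0.35). Much of THUMPD2 was counted on transcripts not annotated as protein-coding, and the fall in SUM159 KD was −0.40 (adjusted p = 0.14) over its protein-coding transcripts alone.

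ALKBH8 and TRMT11 were lower than control in all 3 lines, whether TRMT112 had been lowered or raised. Over all genes, 16.5% were called lower in MDA-MB-231 KD, 31.4% in SUM159 KD and 35% in BT549 OE. The share of all genes lower in all 3 lines was not counted. ALKBH8 (ENSG00000137760, chr11:107502727-107565742, minus strand), which completes the methylated wobble uridine of several tRNAs, had 1798 and 1915 counts in SUM159 EV and 226 and 233 in KD. It fell there to 12.4% of control, an 8.09-fold drop (log2 −3.02 ± 0.07, adjusted p = 5.33e-20). Its counts were 603 and 579 in MDA-MB-231 EV and 524 and 517 in KD, and 397 and 386 in BT549 EV and 302 and 282 in OE. The fall was 0.42 ± 0.09 on the log2 scale in BT549 OE (adjusted p = 0.000166). In MDA-MB-231 KD it was −0.18 ± 0.07 and only just passed (adjusted p = 0.0479). That call is lost with DESeq2 (adjusted p = 0.16), with RLE size factors, without a filter on low counts, and without any 1 of the 4 libraries. TRMT11 (ENSG00000066651, chr6:125986479-126203817, plus strand), the catalytic subunit for a guanosine of the tRNA core, had 674 and 687 counts in SUM159 EV and 269 and 279 in KD. In MDA-MB-231 it had 845 and 920 in EV and 733 and 697 in KD, and in BT549 it had 319 and 328 in EV and 246 and 278 in OE. TRMT11 fell to 40.4% of control in SUM159 KD (log2 −1.31 ± 0.08, adjusted p = 2.56e-12). Its fall was 0.30 ± 0.07 on the log2 scale in MDA-MB-231 KD (adjusted p = 0.0014) and 0.30 ± 0.10 in BT549 OE (adjusted p = 0.0090, lost without OE replicate 1).

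N6AMT1 (ENSG00000156239, chr21:28872191-28885371, minus strand), the enzyme of the termination factor, did not pass the test between the control cells of any pair of lines when all its transcripts were counted. It had 262 and 258 counts in MDA-MB-231 EV and 274 and 277 in KD, 280 and 291 in SUM159 EV and 317 and 362 in KD, and 293 and 276 in BT549 EV and 427 and 372 in OE. It was higher by 0.49 ± 0.11 (log2, adjusted p = 0.000239) in BT549 OE, 1.41-fold. In SUM159 KD it was higher by 0.25 ± 0.10 (adjusted p = 0.0393), a call that is lost with the replicate number as a block (adjusted p = 0.056), under library size scaling, without a filter on low counts, over protein-coding transcripts alone (+0.06, adjusted p = 0.80), and without EV replicate 1, EV replicate 2 or KD replicate 2. In MDA-MB-231 KD it did not pass the test (+0.08, 95% CI −0.14 to 0.30). ETF1 encodes eRF1, the protein that N6AMT1 methylates, and had 6042 and 5878 counts in SUM159 EV and 4661 and 5117 in KD. GSPT1, which encodes the partner factor eRF3a, had 3517 and 3538 in SUM159 EV and 2016 and 2103 in KD, and 1439 and 1454 in BT549 EV and 3384 and 3246 in OE. GSPT1 fell by 0.78 ± 0.04 (adjusted p = 2.20e-13) in SUM159 KD and was 2.29-fold higher in BT549 OE (+1.197 ± 0.05, adjusted p = 1.20e-16). ETF1 fell by 0.28 ± 0.04 in SUM159 KD (adjusted p = 6.09e-07) and was higher by 0.11 ± 0.04 in BT549 OE (adjusted p = 0.0084). In MDA-MB-231 KD, GSPT1 was higher by 0.22 ± 0.04 (adjusted p = 0.00029) and ETF1 changed by 0.09 (adjusted p = 0.065).

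**Figure D2:**
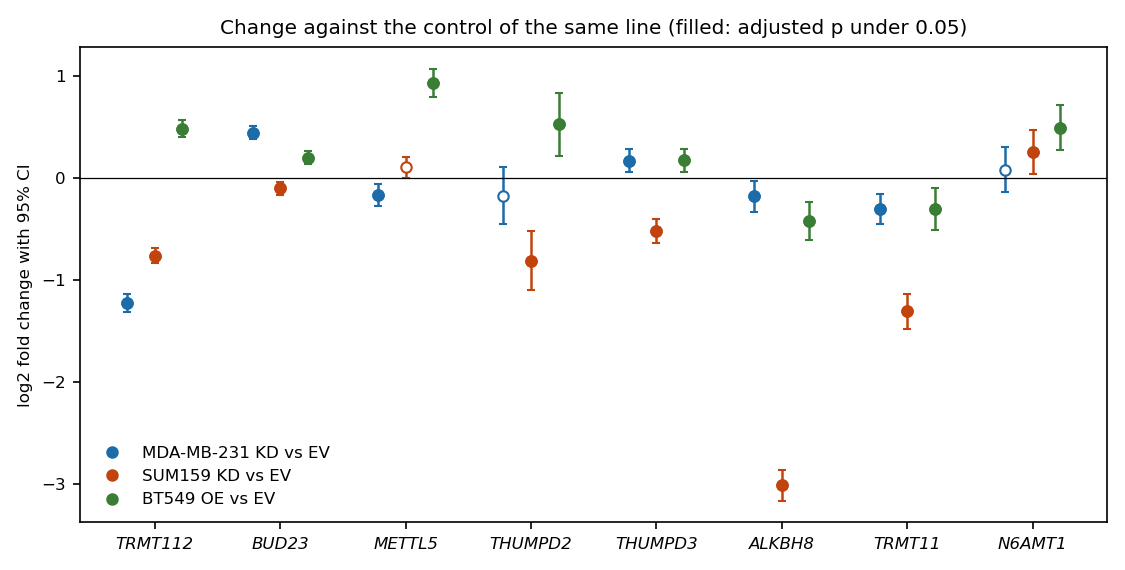
Log2 fold change of the 8 genes against the EV control of the same line, with 95% confidence intervals over 2 libraries per group. Filled points passed the adjusted p threshold of 0.05. ALKBH8 in SUM159 KD (−3.02) lies far below all other values, and ALKBH8 and TRMT11 lie below 0 in each line.

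Counted over the 7 partners, 2 rose and 3 fell in MDA-MB-231 KD, where 21.2% of all genes were called higher and 16.5% lower. With TRMT112 itself 6 members were called there, but 3 without EV replicate 1 and 3 to 4 when any 1 of the 4 libraries was left out. In SUM159 KD 1 rose and 5 fell, against 28.6% of all genes called higher and 31.4% lower. In BT549 OE 5 rose and 2 fell, against 35.6% higher and 35% lower. The median absolute log2 fold change over all genes was 0.23 in MDA-MB-231 KD, 0.46 in SUM159 KD and 0.70 in BT549 OE. Among the 8 members, TRMT112, BUD23 and TRMT11 exceeded it in MDA-MB-231 KD, TRMT112, THUMPD2, THUMPD3, ALKBH8 and TRMT11 in SUM159 KD, and METTL5 alone in BT549 OE.

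The knockdown effects in MDA-MB-231 and SUM159 differed for 7 of the 8 members by the interaction of line and construct, where 50.9% of all genes were called. TRMT112 itself fell more in MDA-MB-231 (difference of log2 fold changes −0.47 ± 0.06, adjusted p = 1.83e-07). ALKBH8 (+2.83 ± 0.10, adjusted p = 3.08e-16) and TRMT11 (+1.01 ± 0.11, adjusted p = 5.07e-08) fell more in SUM159, the line with the smaller fall of TRMT112. THUMPD3 fell in SUM159 and was higher in MDA-MB-231 (+0.69 ± 0.08, adjusted p = 9.43e-08), and THUMPD2 fell in SUM159 and did not pass in MDA-MB-231 (+0.64 ± 0.19, adjusted p = 0.0083). BUD23 rose in MDA-MB-231 KD and did not in SUM159 KD (+0.55 ± 0.04, adjusted p = 4.27e-10), and METTL5 was lower relative to SUM159 (−0.27 ± 0.07, adjusted p = 0.0028). N6AMT1 showed no detectable difference (−0.17, 95% CI −0.48 to 0.14, adjusted p = 0.36). For THUMPD2 the difference was 0.04 (adjusted p = 0.97) over its protein-coding transcripts alone.

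The control cells of the 3 lines differed in most of the members, as they did in most genes. These comparisons use the same EV libraries as those above. The lines also differ in medium, and the BT549 control in its vector and drug, so line, medium and vector cannot be told apart. Between MDA-MB-231 EV and SUM159 EV 6 of 8 members were called, against 75.7% of all genes. TRMT112 was lower in MDA-MB-231 (log2 −0.67 ± 0.04, adjusted p = 5.64e-14), BUD23 lower (−0.47 ± 0.03) and ALKBH8 lower (−1.65 ± 0.06, adjusted p = 5.39e-17), while TRMT11 was higher (+0.37 ± 0.07, adjusted p = 5.83e-05). THUMPD2 (−0.32, adjusted p = 0.031) and THUMPD3 (−0.12, adjusted p = 0.049) were also called, but THUMPD2 became +0.21 (adjusted p = 0.40) over protein-coding transcripts and THUMPD3 lost its call under 10 alternatives. METTL5 and N6AMT1 did not pass. BT549 EV differed from MDA-MB-231 EV in 7 of 8 members (79.5% of all genes) and from SUM159 EV in 7 of 8 (78.4% of all genes), N6AMT1 being the exception both times. Over protein-coding transcripts alone N6AMT1 was lower in BT549 EV than in SUM159 EV (−0.39, adjusted p = 0.044). METTL5 was at 30.7% of its MDA-MB-231 level in BT549 (log2 −1.71 ± 0.06, adjusted p = 9.66e-18) and TRMT11 at 36.6% (−1.45 ± 0.08, adjusted p = 6.24e-14), while BUD23 was 1.69-fold higher (+0.76 ± 0.03, adjusted p = 2.14e-16). Against SUM159 EV, ALKBH8 was at 21.1% (−2.24 ± 0.07, adjusted p = 5.42e-19) and TRMT112 at 47.8% (−1.07 ± 0.04, adjusted p = 1.31e-17). With scaling by library size only, the median of all genes moved to −0.34 (BT549 against MDA-MB-231) and −0.27 (against SUM159), from −0.03 and −0.06. THUMPD3, higher in BT549 by 0.40 and 0.28, then no longer passed (+0.09 and +0.07).

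Most members were carried by 1 or a few transcripts. Counts are divided among transcripts that share exons by the counting program, so a share is an estimate. TRMT112-206, the 4-exon reference transcript of the gene, held between 89.5% and 97.4% of the TRMT112 counts in the 12 libraries. TRMT112-205, which retains an intron, held 0.380% to 6.25%. Its counts fell with the knockdown in MDA-MB-231 from 88.2 and 90.6 in EV to 17.8 and 6.63 in KD (log2 −2.80 ± 0.45, adjusted p = 0.0068 over 64066 transcripts). TRMT112-205 did not pass the test in SUM159 KD (−1.02, adjusted p = 0.13). In BT549 it had 135 and 144 expected counts in EV and 242 and 235 in OE and did not pass (+0.81, adjusted p = 0.17). TRMT112-201, the only other TRMT112 transcript annotated as protein-coding, held 0.733% to 2.48% and went from 99.6 and 114 expected counts in SUM159 EV to 28.4 and 50.1 in KD (log2 −1.60 ± 0.39, adjusted p = 0.0218). Exon 3 is shown because its later start is the only difference in coding sequence between these 2 transcripts, and it keeps the reading frame. The exon lies at chr11:64317058-64317147 (GRCh38, minus strand) and is printed 5′ to 3′, with the 15 bases that TRMT112-201 lacks in capitals:
TRMT112 exon 3: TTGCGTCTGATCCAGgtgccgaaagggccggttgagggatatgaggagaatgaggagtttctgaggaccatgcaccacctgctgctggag

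N6AMT1 was split between transcripts that differ in an exon of the active site. N6AMT1-201, the reference, and N6AMT1-203, which has the same coding exons but is annotated as a target of nonsense-mediated decay, contain exon 4 and together held between 47.8% and 68.9% of the counts, and N6AMT1-202, which skips it, held the rest. Most of the share with exon 4 was N6AMT1-203 (35.3% to 59.0%). The estimate for N6AMT1-201 varied widely between libraries of a group, as with 12.7% and 0.218% in MDA-MB-231 EV and 20.98% and 4.42% in KD. The shares with exon 4 were 58.4% and 47.8% in MDA-MB-231 EV and 68.9% and 63.0% in KD, 48.8% and 49.6% in SUM159 EV and 51.1% and 50.9% in KD, and 58.3% and 51.2% in BT549 EV and 59.0% and 65.3% in OE. KD and OE libraries lay above the EV libraries of their line in each case, by little in SUM159 and between the nearest BT549 libraries, and none of the 3 N6AMT1 transcripts passed the test in any line. Exon 4 lies at chr21:28879870-28879953 (GRCh38, minus strand), is coding and has 84 bases, so that skipping it keeps the reading frame. It is shown because it holds the codons of the catalytic NPPY motif of this enzyme family, in capitals:
N6AMT1 exon 4: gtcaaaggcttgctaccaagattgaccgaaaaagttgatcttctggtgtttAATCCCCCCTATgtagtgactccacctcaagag

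**Figure D3:**
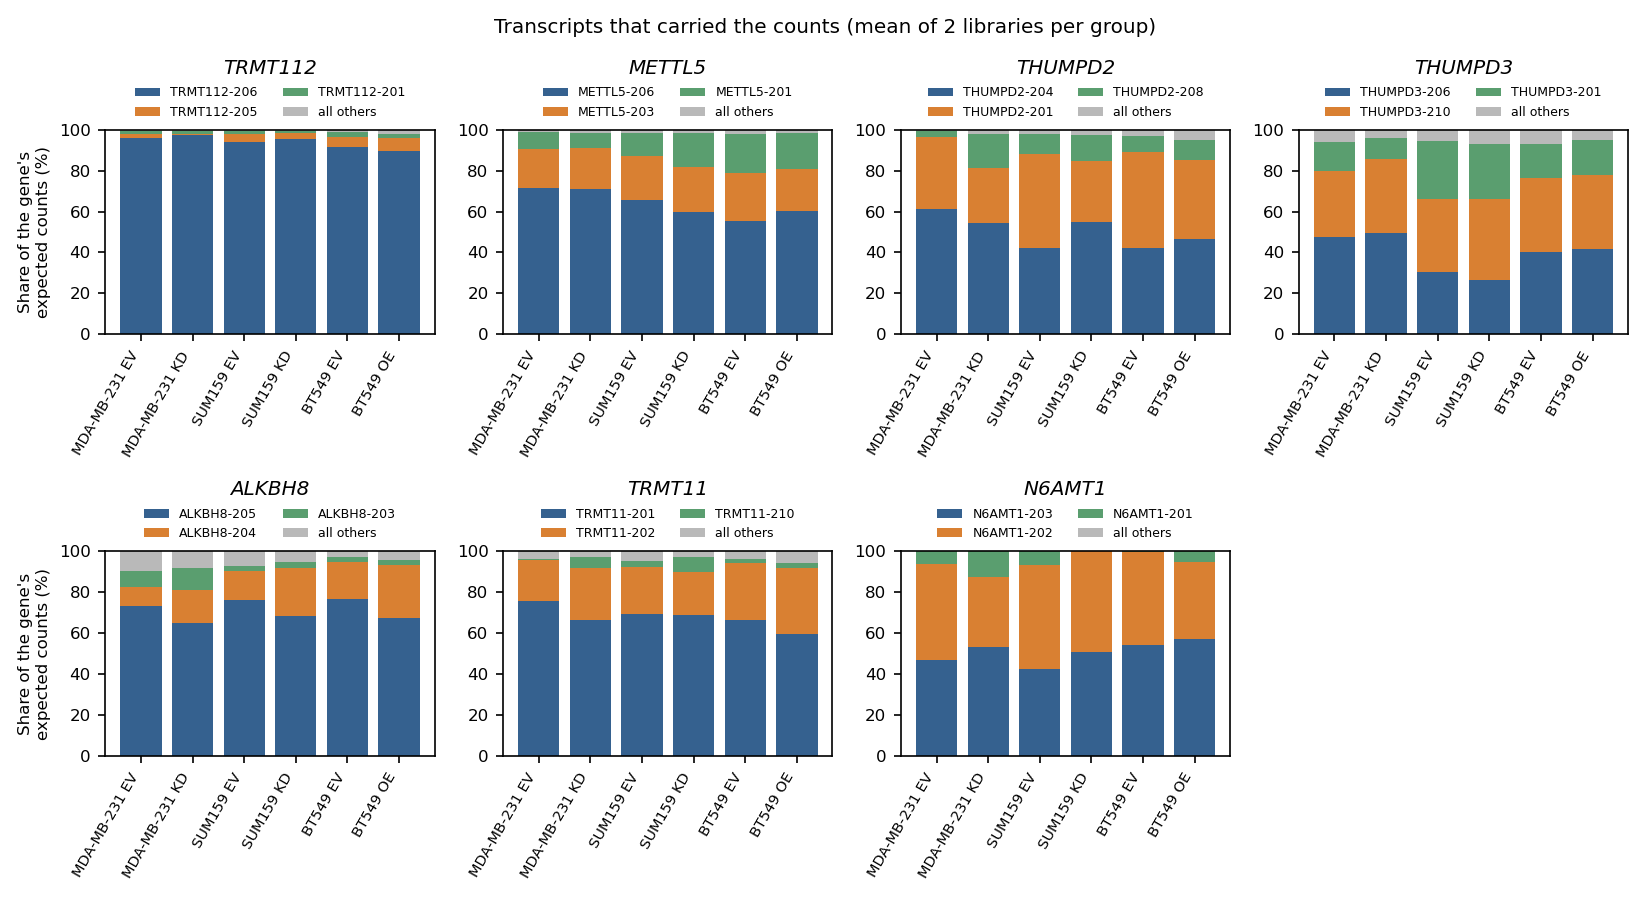
Share of each gene's expected counts (percent, stacked bars from 0 to 100, mean of 2 libraries per group) held by its 3 most abundant transcripts and by all others. TRMT112 rests on 1 transcript in every group, while THUMPD2 and N6AMT1 are divided. BUD23 has 1 transcript and is not drawn.

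Fewer member transcripts than member genes passed the test in MDA-MB-231 KD and BT549 OE, but not in SUM159 KD. Of 56 member transcripts listed, 33 passed the filter. In SUM159 KD 9 of them fell and none rose (13.2% of all transcripts called in either direction). ALKBH8-205, the reference transcript with 61.7% to 78.0% of the ALKBH8 counts, fell from 1355 and 1448 expected counts in EV to 149 and 189 in KD (log2 −3.18 ± 0.13, adjusted p = 9.64e-08). ALKBH8-204 (−2.34 ± 0.32, adjusted p = 0.00064) and ALKBH8-203 (−2.51 ± 0.63, adjusted p = 0.0239) fell with it, as did TRMT11-201 (−1.33 ± 0.15, adjusted p = 0.000188) and TRMT11-202 (−1.46 ± 0.27, adjusted p = 0.0044). THUMPD3-206 and THUMPD3-210, which held most of the THUMPD3 counts, fell by 0.74 and 0.39 on the log2 scale. In BT549 OE 5 rose and 1 fell (22.1% of all transcripts called). METTL5-206, METTL5-203 and METTL5-201, which are annotated with the same coding sequence and held nearly all METTL5 counts, rose by 1.06 ± 0.08, 0.76 ± 0.14 and 0.86 ± 0.26. ALKBH8-205 was the transcript that fell (−0.60 ± 0.12, adjusted p = 0.0049). In MDA-MB-231 KD 1 rose, BUD23-201, and 2 fell, both of TRMT112 (3.7% of all transcripts called). Several main transcripts did not pass although their gene did: BUD23-201 in SUM159 KD (−0.11, adjusted p = 0.064), and METTL5-206 (−0.18, adjusted p = 0.31), THUMPD3-206 (+0.22, adjusted p = 0.36), THUMPD3-210 (+0.33, adjusted p = 0.17), TRMT11-201 (−0.50, adjusted p = 0.12) and ALKBH8-205 (−0.37, adjusted p = 0.16) in MDA-MB-231 KD. THUMPD2 was divided between THUMPD2-204, its protein-coding reference, and transcripts not annotated as protein-coding, which held between 26.9% and 61.4% of its counts, and none of its transcripts passed the test.

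ALKBH8 and TRMT11 were lower in all 3 comparisons, although the ALKBH8 call in MDA-MB-231 KD was lost under 7 of 13 alternatives. The share of all genes lower in all 3 was not counted. As a description, the sequences before the transcription starts of ALKBH8 and TRMT11 were compared (RefSeq, GRCh38.p14, where 6 of the 8 members matched an entry). Each is printed 5′ to 3′ on the strand of the gene up to the first annotated exon. The first, for ALKBH8, lies at chr11:107565743-107565985 (minus strand) and has a CCAAT box in capitals. The second, for TRMT11, lies at chr6:125986290-125986478 (plus strand) and has an ETS core motif, CCGGAAG read on the other strand, in capitals:
ALKBH8: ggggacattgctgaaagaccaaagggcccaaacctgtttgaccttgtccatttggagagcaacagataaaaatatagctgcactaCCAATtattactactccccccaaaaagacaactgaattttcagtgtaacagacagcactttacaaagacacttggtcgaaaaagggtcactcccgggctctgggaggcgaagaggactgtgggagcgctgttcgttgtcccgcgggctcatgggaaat
TRMT11: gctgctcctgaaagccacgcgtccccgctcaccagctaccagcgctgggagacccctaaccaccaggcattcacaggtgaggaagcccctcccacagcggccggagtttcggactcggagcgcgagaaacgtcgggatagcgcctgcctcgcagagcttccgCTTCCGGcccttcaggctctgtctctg

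The 2 sequences shared none of the 5 motifs searched on both strands of 250 bases (the ETS core CCGGAAG, the GC box GGGCGG, the CCAAT box, the cAMP response element TGACGTCA, and the TATA box TATAAA). The CCAAT box stood in 32.0% and the ETS core in 8.52% of 35116 promoter windows of that length. The 2 windows of 250 bases also differed in base composition, with 48.8% G and C for ALKBH8 and 66.4% for TRMT11. These windows run past the printed sequences into annotated exons. TRMT112 itself had 3 matches of the ETS core and 1 CCAAT box in its window. These are matches of letters, and no binding was measured here.

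The genes around ALKBH8 were examined after its fall in SUM159 KD had been seen. Within 1 Mb of ALKBH8, 12 other protein-coding genes were tested, of which 9 were lower in SUM159 KD and none higher, against 31.4% of all genes called lower. CWF19L2, 108 kb away by gene start, had 835 and 729 counts in SUM159 EV and 154 and 160 in KD (log2 −2.31 ± 0.11, adjusted p = 8.02e-15). ELMOD1, which starts 25.3 kb away on the other side, had 75.7 and 74.4 in EV and 0 in both KD libraries, at least 26.7-fold lower when 3 counts per KD library are taken as the floor. ACAT1 had 2617 and 2457 counts in EV and 1039 and 1163 in KD (−1.20 ± 0.05), and POGLUT3, 933 kb away, 500 and 498 in EV and 216 and 218 in KD (−1.20 ± 0.08). ELMOD1 and CWF19L2, the nearest of the 12 by gene start, fell most. In MDA-MB-231 KD 1 of the same 12 was lower and none higher, and in BT549 OE 3 were lower and 4 higher. Of the BT549 calls, ELMOD1 and EXPH5 (lower) and C11orf65 (higher) rested on few counts, at most 11.1 in a BT549 library. Copy number was not measured, and the cause of the shared fall was not tested.

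**Figure D4:**
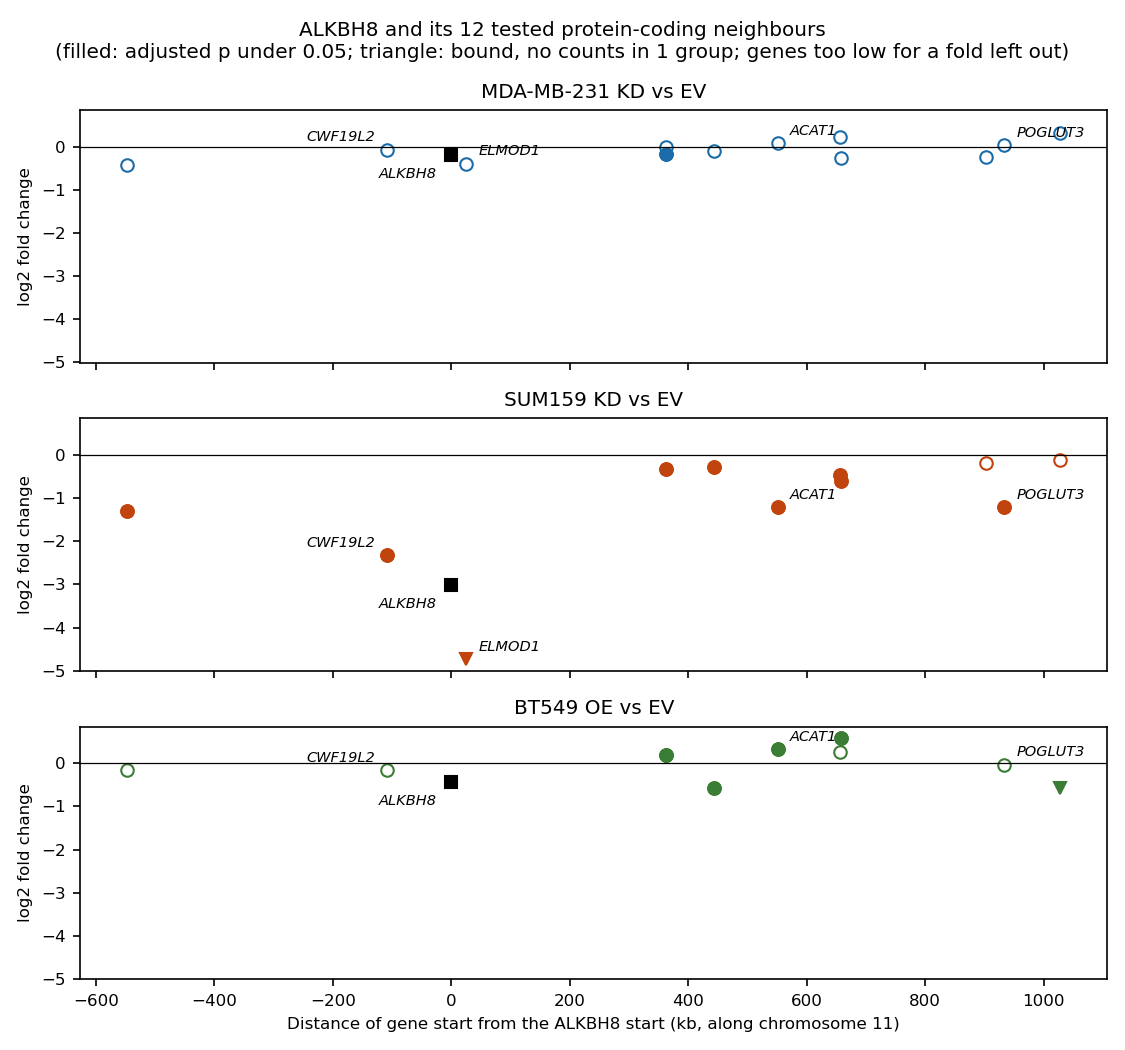
Log2 fold change (vertical axis) of ALKBH8 (square) and its 12 tested neighbours by distance of their gene starts from that of ALKBH8 (kb), in the 3 comparisons. Filled circles passed the adjusted p threshold of 0.05, a triangle is a bound for a gene with no counts in 1 group, and genes too low for a fold are left out. In SUM159 KD the points around ALKBH8 lie below 0, with CWF19L2 at −2.31, while in the other lines they scatter around 0.

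Enzymes of the same processes that do not depend on TRMT112 were listed for comparison. Of 12 other base-modifying enzymes of rRNA, 3 rose and none fell in MDA-MB-231 KD, 1 rose and 11 fell in SUM159 KD, and 4 rose and 5 fell in BT549 OE. Over all genes these shares were 21.2% higher and 16.5% lower, 28.6% and 31.4%, and 35.6% and 35%, respectively. The median log2 fold change of the rRNA enzymes in SUM159 KD was −0.60 against −0.52 for the 7 partners and 0.00 for all genes. DIMT1, the dimethyladenosine transferase of 18S rRNA, had 3458 and 3264 counts in SUM159 EV and 2196 and 2277 in KD (−0.59 ± 0.04, adjusted p = 1.10e-11), and it was higher in MDA-MB-231 KD (+0.20 ± 0.04) and in BT549 OE (+0.72 ± 0.04). NAT10, which acetylates cytidines of 18S rRNA, had 1040 and 1031 in SUM159 EV and 562 and 523 in KD (−0.93 ± 0.07, adjusted p = 9.88e-11). TSR3, an aminocarboxypropyl transferase of the same rRNA, had 853 and 943 in BT549 EV and 2497 and 2250 in OE (+1.40 ± 0.07, adjusted p = 6.03e-15). EMG1, a pseudouridine methyltransferase, had 1235 and 1295 in MDA-MB-231 EV and 1603 and 1611 in KD (+0.34 ± 0.05, adjusted p = 2.88e-06).

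Of 30 other tRNA methyltransferases, 4 rose and 10 fell in MDA-MB-231 KD, 3 rose and 19 fell in SUM159 KD (median −0.45), and 11 rose and 12 fell in BT549 OE, where 35.6% of all genes were called higher and 35% lower. In SUM159 KD 28.6% of all genes were called higher and 31.4% lower, and in MDA-MB-231 KD 21.2% and 16.5%. NSUN2, a cytosine methyltransferase of tRNA, had 4646 and 4753 counts in SUM159 EV and 2135 and 2211 in KD (−1.11 ± 0.04, adjusted p = 1.37e-16). TRMT6, the partner subunit of an adenosine methyltransferase, had 1096 and 1106 in SUM159 EV and 563 and 609 in KD (−0.91 ± 0.06). In MDA-MB-231 KD, TRMT1 (−0.48 ± 0.06, adjusted p = 1.44e-06) and TRMT10B (−0.68 ± 0.09, adjusted p = 3.70e-06), both guanosine methyltransferases, were the clearest falls. In BT549 OE, TRMT2A, a uridine methyltransferase, had 1968 and 1955 counts in EV and 870 and 834 in OE (−1.20 ± 0.06), and TRMO fell from 527 and 473 to 175 and 196 (−1.43 ± 0.12). The falls in SUM159 KD thus included enzymes outside the TRMT112 family, and only ALKBH8 and TRMT11 among the partners went below the lowest value of the 30 (−1.11).

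Of the 12 genes that build the wobble uridine to which ALKBH8 adds its methyl group, 2 rose and 4 fell in MDA-MB-231 KD, 4 rose and 5 fell in SUM159 KD, and 7 rose and 3 fell in BT549 OE. The shares of all genes called higher and lower were 21.2% and 16.5%, 28.6% and 31.4%, and 35.6% and 35% in these comparisons. ELP3, the catalytic subunit of the Elongator complex, had 1025 and 1017 counts in SUM159 EV and 533 and 524 in KD (−0.95 ± 0.06, adjusted p = 7.58e-12), the largest fall of the list in that line. URM1, the sulfur carrier of uridine thiolation, moved the other way there, from 2291 and 2310 to 3760 and 3584 (+0.67 ± 0.04, adjusted p = 1.62e-12). In MDA-MB-231 KD, CTU2, a subunit of the thiolation enzyme, was higher (+0.34 ± 0.05, adjusted p = 3.33e-06) and DPH3, an electron donor to Elongator, was lower (−0.63 ± 0.09, adjusted p = 3.62e-06). In BT549 OE, ELP5, an Elongator subunit, was higher (+0.84 ± 0.06, adjusted p = 2.54e-12) and KTI12, an Elongator regulator, was lower (−0.68 ± 0.06, adjusted p = 1.43e-10). ALKBH8 in SUM159 KD was therefore the most reduced gene of the pathway in that line.

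**Figure D5:**
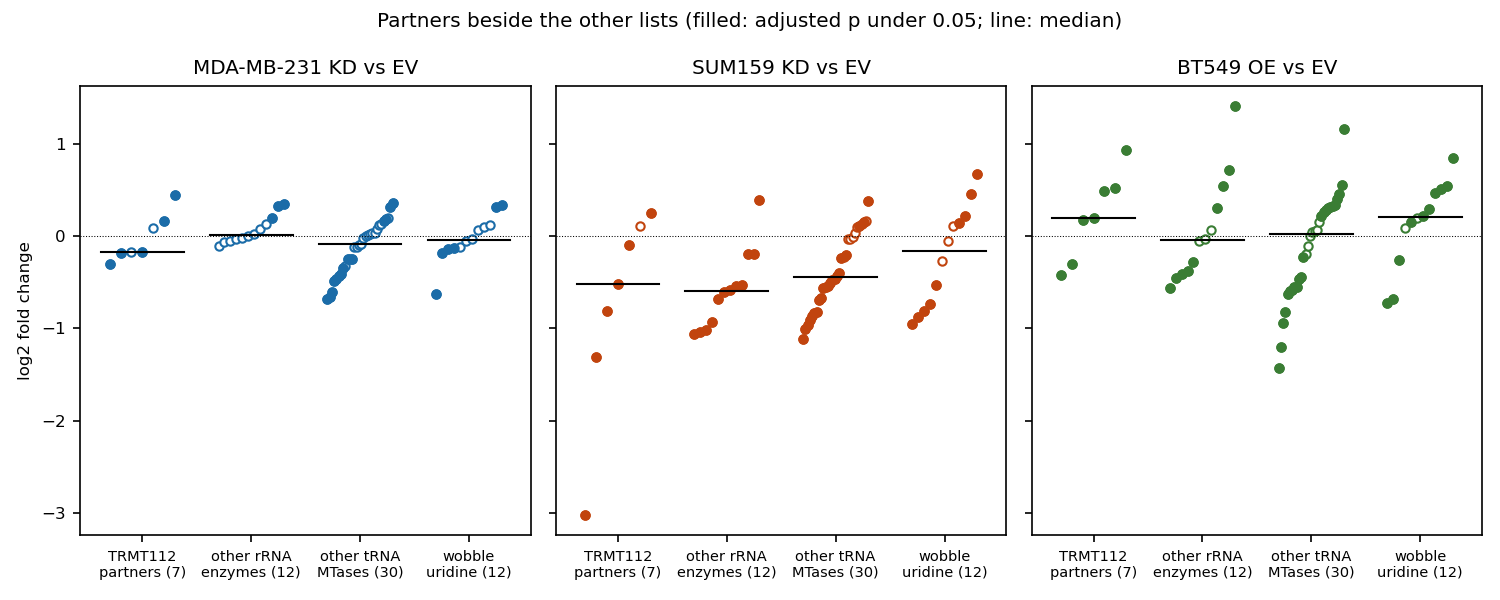
Log2 fold change of the 7 partners and of the 3 comparison lists in each line, sorted within a list, with filled points for adjusted p under 0.05 and a line at the median. In SUM159 KD the medians of the partners (−0.52), of the other rRNA enzymes (−0.60) and of the other tRNA methyltransferases (−0.45) all lie below 0.

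Across the 12 libraries, none of the partners followed TRMT112 closely. As a description over libraries that share lines and constructs, Pearson's r of log2 CPM with TRMT112 was between −0.08 (TRMT11) and 0.47 (THUMPD2). Among pairs of partners, THUMPD2 and ALKBH8 (r = 0.76), BUD23 and THUMPD3 (r = 0.71), and ALKBH8 and TRMT11 (r = 0.71) ran most alike, and TRMT11 and N6AMT1 most opposed (r = −0.79). Of 12589 genes that averaged 50 counts or more, the 5 with the pattern most like TRMT112 were UBA6-DT (r = 0.96), AKAP11 (r = 0.96), DHRS11 (r = 0.92), NT5M (r = 0.92) and TIMM9 (r = 0.92). UBA6-DT, for example, averaged 127 counts in MDA-MB-231 EV and 65.1 in KD, 222 and 137 in SUM159 EV and KD, and 110 and 153 in BT549 EV and OE.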

How the data were processed

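Polysome-associated RNA of 12 libraries was analysed, 2 in each of 6 groups that the sample labels define. According to the study's methods and the submitters' processing notes, polysomal fractions of sucrose gradients were pooled, and reads were trimmed with Trimmomatic, aligned to GRCh38 with HISAT2 and cleared of duplicates with SAMtools, with further steps in Partek. The deposited values are expected counts, made by the authors without normalization, of 201932 Ensembl transcripts. In the 8 MDA-MB-231 and SUM159 columns the unit recorded was other, because 5.08% of rows as deposited by the authors carry a missing mark, read here as 0. The counting program, its annotation and its strand setting are not given in the sources used here, and the labels and methods name different library kits (poly(A) selection and rRNA depletion), so overlapping genes on opposite strands are uncertain.

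Transcripts were matched to GENCODE 44 without version numbers (79.6% of transcripts, 99.2% to 99.4% of counts), summed per symbol and rounded. edgeR 4.0.16 (R 4.3.3) fitted 6 group means to all 12 libraries, with 6 residual degrees of freedom, after filterByExpr and TMM scaling. Contrasts were tested by quasi-likelihood with Benjamini-Hochberg adjustment over 16538 genes, and "called" means an adjusted p under 0.05. Library totals of 22954226 to 27434677 limit precision at low counts. Intervals cover only the spread between the 2 libraries of a group, pooled over the 6 groups and moderated across genes. TPM was the count per annotated length, summed per gene and scaled to one total per library. The fit was run on simulated counts in which far fewer genes changed than were called here. That run cannot show how the scaling or the error rates hold in these data. DESeq2 1.42.0, other scalings, filters, transcript sets, a replicate block and leaving out each library were alternatives.

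Named genes were the 8 members, ETF1 and GSPT1, the 2 called genes of each other list with the smallest p in each construct comparison, the 5 genes most correlated with TRMT112, and overlapping or copied genes. Neighbours of ALKBH8 were added after their values were seen. The members and lists were chosen with earlier results of these data known. ESR1 and HBB were looked up as markers but were not among the 24559 gene symbols, so they were not analysed here.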

Additional observations from a re-analysis of the deposited data

Results flagged for a closer look

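The effect of the knockdown differed between MDA-MB-231 and SUM159 for 7 of the 8 members, by the interaction of line and construct in the edgeR fit (adjusted p under 0.05). As MDA-MB-231 minus SUM159 on the log2 scale, the difference was −0.47 for TRMT112, +0.55 for BUD23, −0.27 for METTL5, +0.64 for THUMPD2, +0.69 for THUMPD3, +2.83 for ALKBH8 and +1.01 for TRMT11. Over all genes 50.9% differed in this way. The depth of the TRMT112 knockdown, the line and its medium changed together between the 2 comparisons and cannot be told apart. With 2 libraries in a group, no single library could be tested as standing apart from its group.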

How the results depend on the processing

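Of 760 member fold changes under alternatives, 691 kept their direction and side of the threshold, 51 lost the call, 7 gained it and 11 changed sign. TRMT112 kept its call and direction in the 3 construct comparisons under each alternative. Without 1 library, the number of members called in MDA-MB-231 KD ranged from 3 to 4 against 6 (3 without EV replicate 1). With a mean of at least 50 counts, 5 member transcripts were called in MDA-MB-231 KD against 3. Sign changes were as follows. N6AMT1 in MDA-MB-231 KD was −0.0089 (log2) by library size and −0.13 over protein-coding transcripts, METTL5 in MDA-MB-231 EV against SUM159 EV was +0.027 by library size, and THUMPD2 there was +0.21 over protein-coding transcripts. N6AMT1 in BT549 EV was −0.19 and −0.16 against MDA-MB-231 EV in those 2 settings. Against SUM159 EV it was +0.076 with RLE factors and with DESeq2, −0.39 with a gained call over protein-coding transcripts (adjusted p = 0.044), +0.0052 with only these 2 lines fitted, and ranged from −0.046 to +0.046 when 1 library was left out (the extremes without BT549 EV replicate 1 and replicate 2). The cause was not tested.

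Mean TPM over the 12 libraries changed with the length model, in some cases by less than the SD within a group of libraries. With the length of the most abundant transcript it was 370.01 for TRMT112 (358 as first calculated), 436 for BUD23 (414), 29.7 for THUMPD3 (40.3), 12.6 for ALKBH8 (16.9) and 18.2 for N6AMT1 (11.1). Over protein-coding transcripts it was 373 for TRMT112, 456 for BUD23, 170.1 for METTL5 (154), 3.39 for THUMPD2 (6.54), 43.6 for THUMPD3, 13.8 for ALKBH8, 24.2 for TRMT11 (23.04) and 2.52 for N6AMT1.

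Replicate numbers did not pair the libraries (correlations of their deviations 0.003, −0.03 and 0.02 in the 3 lines). With the replicate block, 6, 6 and 8 members were called in MDA-MB-231 KD, SUM159 KD and BT549 OE, against 6, 7 and 8 without it.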

Other observations

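The neighbourhoods of the other members, within 1 Mb and chosen after the fall around ALKBH8 had been seen, differed among themselves in SUM159 KD. Around N6AMT1 6 of 7 tested protein-coding genes were lower and none higher, with a median log2 fold change of −0.83, while N6AMT1 itself was at +0.25. Around METTL5 6 of 12 were lower and none higher. Around TRMT112 31 of 54 were higher and 10 lower, and around THUMPD3 22 of 32 were higher and 5 lower, while THUMPD3 itself fell. TRMT11 had 3 of 7 neighbours higher and 2 lower, and BUD23 8 of 24 higher and 8 lower. Around THUMPD2, which itself fell, 4 of 9 were lower and none higher. Over all genes 31.4% were lower and 28.6% higher in this comparison.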
